A study of Rattus norvegicus with 6 samples.

Results

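The genes of sodium reabsorption in the distal nephron and of its control by aldosterone were examined in the renal cortex of rats dosed with 2-amino-4-nitrophenol, an aromatic amine with a nitro group. The 10 genes were Slc12a3, Wnk1, Wnk4, Stk39, Scnn1a, Scnn1b, Scnn1g, Nr3c2, Hsd11b2 and Sgk1. A probe was taken as a member when the array file annotated it with a RefSeq transcript of a listed gene, and 21 of the 61657 non-control probes met this rule. All 10 genes had a probe: 7 had several and 3 (Scnn1g, Hsd11b2 and Sgk1) had 1. Each of the 6 animals, all male Sprague-Dawley (Crl:CD(SD)) rats that were 5 weeks old at purchase, gave RNA from whole renal cortex to 1 single-colour Agilent array. In the treated group, 3 rats were dosed with 2-amino-4-nitrophenol over 4 weeks (750 mg/kg/day), and in the control group 3 rats had corn oil over the same period. Animals within a group are labelled as biological replicates.

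The distal convoluted tubule reabsorbs sodium chloride through the thiazide-sensitive cotransporter, which is switched on when WNK kinases activate the kinase SPAK. Further along, in the connecting tubule and collecting duct, sodium enters principal cells through the epithelial sodium channel, a complex of alpha, beta and gamma subunits. Aldosterone acts there through the mineralocorticoid receptor, 11-beta-hydroxysteroid dehydrogenase type 2 protects that receptor from glucocorticoids, and the kinase Sgk1 is a classical early target that raises channel activity.

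Most probes of the distal sodium genes had a slightly lower mean in treated cortex, and none passed the test. Of the 21 probes, 20 had a lower mean in the treated rats, against 50.2% of all 40894 probes tested. The median log2 change was -0.32 over the 21, against a median of -0.0013 over all tested probes. By limma with Benjamini-Hochberg adjustment over all tested probes at a threshold of 0.05, 0 of the 21 member probes were called, and likewise 0 of the 40894 (0%). At an unadjusted p under 0.05 there were 8 of 21 member probes, all lower, whereas 9.43% of all probes were lower and 20.7% passed in either direction. Those 8 probes came from 6 genes, and 4 of the 10 genes were under 0.05 by their brightest probe. For 10 of the 21 probes, all lower, the treated and corn oil arrays did not overlap, whereas 12.9% of all probes were lower without overlap and 30.0% did not overlap in either direction. Those 10 include Scnn1b A_64_P068913 and Wnk1 A_44_P276080, whose nearest treated and corn oil arrays were equal to 2 decimals. Without corn oil replicate 2 (the only array on another slide) that count of 8 was 3 of 21. This was a share close to that of all probes in either direction (5442 of 40894), and the member median was -0.24. The count was 4 without treated replicate 3 (5086 of all 40894 probes) and 5 without treated replicate 2 (6917 of 40894). RNA came from whole cortex, so fewer distal tubule cells and less RNA per cell cannot be told apart.

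Signals are given as log2 of the scanner's processed intensity minus the 75th percentile of the array, so that a value of 0 equals that percentile, and array values are listed in the order of replicates 1, 2 and 3. No signal of a probe is compared with that of another probe. The 75th percentile before scaling was 564 to 685 on the treated arrays and 743 to 852 on the corn oil arrays, and no probe was saturated. One slide held every treated array, in its second row, and also corn oil replicates 1 and 3, in its first row, so position and treatment cannot be told apart within that slide. The columns of the authors' value table matched the scanner files of another replicate of the same group, so replicate numbers here follow the scanner files and the group of each array is unaffected. Cortex identity was borne out by its tubule markers: the proximal tubule genes Miox and Slc13a3 averaged 9.23 and 8.70 over the 6 arrays.

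**Figure D1:**
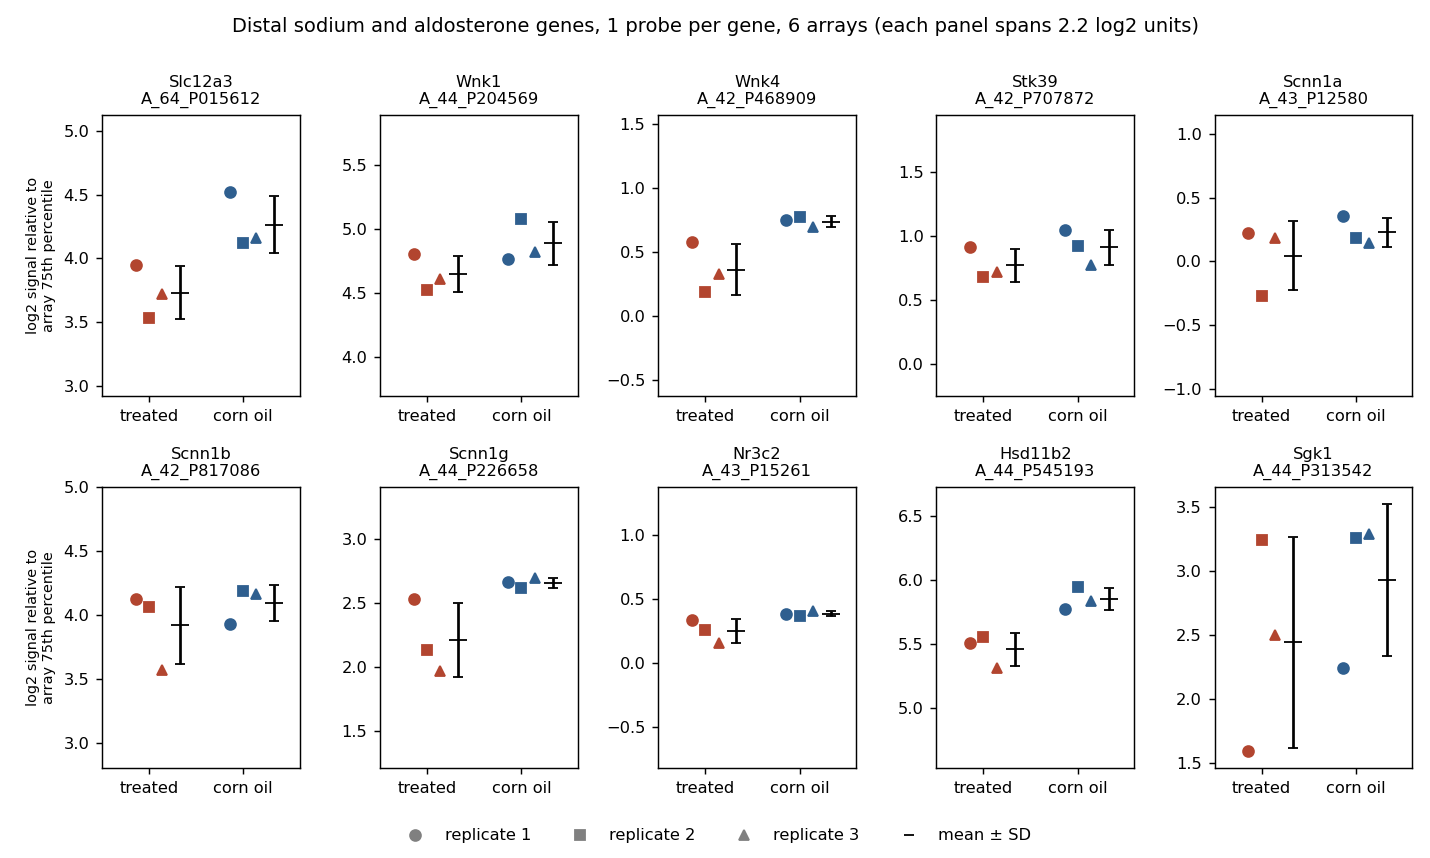
Log2 signal relative to the array's 75th percentile for 1 probe of each gene (the one with the highest mean signal), on the 3 treated and 3 corn oil arrays; marker shape gives the replicate, and the black bar is the mean with its SD. All 10 means lay lower in the treated group, and the groups did not overlap for 5 of the 10 (Slc12a3, Wnk4, Scnn1g, Nr3c2 and Hsd11b2). Over all tested probes, 50.2% had a lower treated mean. Of all tested probes, 12.9% were lower without overlap and 30.0% did not overlap in either direction.

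RefSeq promoter sequences of the GRCr8 assembly were at hand for 7 of the 10 genes, in 9 windows since Sgk1 has several transcript starts. The 250 bases upstream of the start are shown for the 3 of these genes whose brightest probe did not overlap between the groups (Slc12a3, Wnk4 and Scnn1g). They are also shown for 1 of the Sgk1 starts, as the classical aldosterone target. Capitals mark the TATA box letters TATAAA and the GC box letters GGGCGG, on either strand.
Slc12a3, chr19:10675051-10675300, minus strand: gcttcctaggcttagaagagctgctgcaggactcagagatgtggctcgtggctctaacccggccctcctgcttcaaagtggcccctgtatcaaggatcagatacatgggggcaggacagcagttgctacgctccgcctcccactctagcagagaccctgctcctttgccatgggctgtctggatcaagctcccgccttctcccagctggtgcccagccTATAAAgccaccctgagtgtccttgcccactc
Wnk4, chr10:86702708-86702957, plus strand: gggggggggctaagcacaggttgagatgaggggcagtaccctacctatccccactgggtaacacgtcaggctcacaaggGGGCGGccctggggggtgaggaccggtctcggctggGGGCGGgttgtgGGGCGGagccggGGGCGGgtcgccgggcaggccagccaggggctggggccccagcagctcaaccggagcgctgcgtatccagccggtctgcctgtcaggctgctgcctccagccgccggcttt
Scnn1g, chr1:185735975-185736224, plus strand: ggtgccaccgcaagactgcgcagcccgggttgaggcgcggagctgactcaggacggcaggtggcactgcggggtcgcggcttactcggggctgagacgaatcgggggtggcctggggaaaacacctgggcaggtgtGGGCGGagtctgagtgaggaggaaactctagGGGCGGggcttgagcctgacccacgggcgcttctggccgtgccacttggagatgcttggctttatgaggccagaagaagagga
Sgk1, chr1:24804832-24805081, minus strand: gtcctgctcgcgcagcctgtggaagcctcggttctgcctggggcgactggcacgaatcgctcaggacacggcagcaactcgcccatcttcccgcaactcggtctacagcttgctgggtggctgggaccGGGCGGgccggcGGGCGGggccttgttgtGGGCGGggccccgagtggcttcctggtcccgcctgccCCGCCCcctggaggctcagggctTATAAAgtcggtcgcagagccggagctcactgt
These windows differ in their core elements. Slc12a3 holds TATAAA beginning 32 bases upstream of its start and no GC box, Sgk1 holds TATAAA at 33 bases and 4 GC boxes, and Wnk4 and Scnn1g hold 4 and 2 GC boxes with no TATAAA. Among all 33469 windows of the same length, 12.9% hold TATAAA and 30.5% hold GGGCGG, counting both strands. The half-site AGAACA, which corticosteroid receptors can bind, is in 0 of the 9 member windows and in 17.5% of all windows. The full palindrome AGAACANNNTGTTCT is in 0 of the 9 and in 4 of all windows. Scnn1a, Nr3c2 and Hsd11b2 had no window, and bases further upstream were not searched, so the counts do not show whether the genes lack such sites.

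Slc12a3, the thiazide-sensitive sodium chloride cotransporter of the distal convoluted tubule, had 3 probes. Its probe A_64_P015612 read 3.95, 3.53 and 3.72 on the treated arrays, against 4.52, 4.12 and 4.16 on the corn oil arrays. All treated arrays lay below all corn oil arrays, and the log2 change was -0.53 ± 0.16 (limma SE, n = 3 per group; 0.692-fold; adjusted p = 0.188). Probe A_64_P015618 read 1.84, 1.41 and 1.46 on the treated arrays, against 2.02, 2.25 and 1.99 on the corn oil arrays. It gave nearly the same difference, -0.52 ± 0.15 (adjusted p = 0.185), again without overlap. The third probe, A_44_P205637, overlapped between the groups and had a log2 change of -0.13 with a 95% interval from -0.64 to 0.38. That interval includes the changes of the other 2 probes. Without corn oil replicate 2 the log2 change of A_44_P205637 was 0.03, and without treated replicate 3 it was 0.0084.

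The WNK kinases upstream of the cotransporter were represented by 6 probes, all with a lower treated mean. Wnk4, a WNK kinase of the distal nephron whose human mutations cause familial hyperkalaemic hypertension, read 0.58, 0.19 and 0.32 on the treated arrays with probe A_42_P468909, against 0.75, 0.77 and 0.70 on the corn oil arrays. The corn oil arrays lay close together (SD 0.04), the treated arrays were spread more widely (SD 0.20), and the groups did not overlap. The log2 change was -0.38 ± 0.12 (limma, adjusted p = 0.196). The other Wnk4 probe, A_64_P155012, overlapped, at -0.05 with a 95% interval from -0.33 to 0.23.

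Wnk1, the more widely expressed WNK kinase, had 4 probes, 2 annotated to each of 2 RefSeq transcripts. The gene also makes a kidney-specific form that lacks most of the kinase domain, and the files do not say which forms a probe detects. Probe A_44_P204569 read 4.80, 4.53 and 4.61 on the treated arrays, against 4.77, 5.08 and 4.82 on the corn oil arrays. The groups overlapped through treated replicate 1 and corn oil replicate 1, with a log2 change of -0.24 ± 0.13 (limma, adjusted p = 0.319), or -0.15 without corn oil replicate 2. Probe A_44_P276080, annotated to the same transcript, read -1.52, -2.13 and -2.03 on the treated arrays, against -1.52, -1.13 and -1.41 on the corn oil arrays. Its change was -0.54 ± 0.19 (limma, adjusted p = 0.207), and the nearest treated and corn oil arrays were equal to 2 decimals. Of the probes of the other transcript, A_44_P217590 had a change of -0.35 ± 0.12 without overlap (limma, adjusted p = 0.204), and A_44_P303651 overlapped at -0.07. Over the 6 arrays the first 3 of these probes ran in parallel (Pearson r from 0.93 to 0.97), while A_44_P303651 followed them less closely (r from 0.19 to 0.39). These correlations describe 6 arrays that share the group difference and the scaling.

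Stk39 encodes SPAK, the kinase that WNKs activate and that phosphorylates the cotransporter. Probe A_42_P707872 read 0.92, 0.68 and 0.72 on the treated arrays, against 1.05, 0.92 and 0.77 on the corn oil arrays. The groups overlapped and the change was -0.14 ± 0.12 (limma, adjusted p = 0.495). It was -0.075 without corn oil replicate 1 and -0.22 without treated replicate 1. Probe A_44_P476780 read -3.09, -2.80 and -2.60 on the treated arrays, against -2.36, -2.37 and -2.52 on the corn oil arrays. Here the groups did not overlap and the change was -0.42 ± 0.15 (limma, adjusted p = 0.205). The 2 probes ordered the treated arrays differently, with replicate 1 the highest on one and the lowest on the other.

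**Figure D2:**
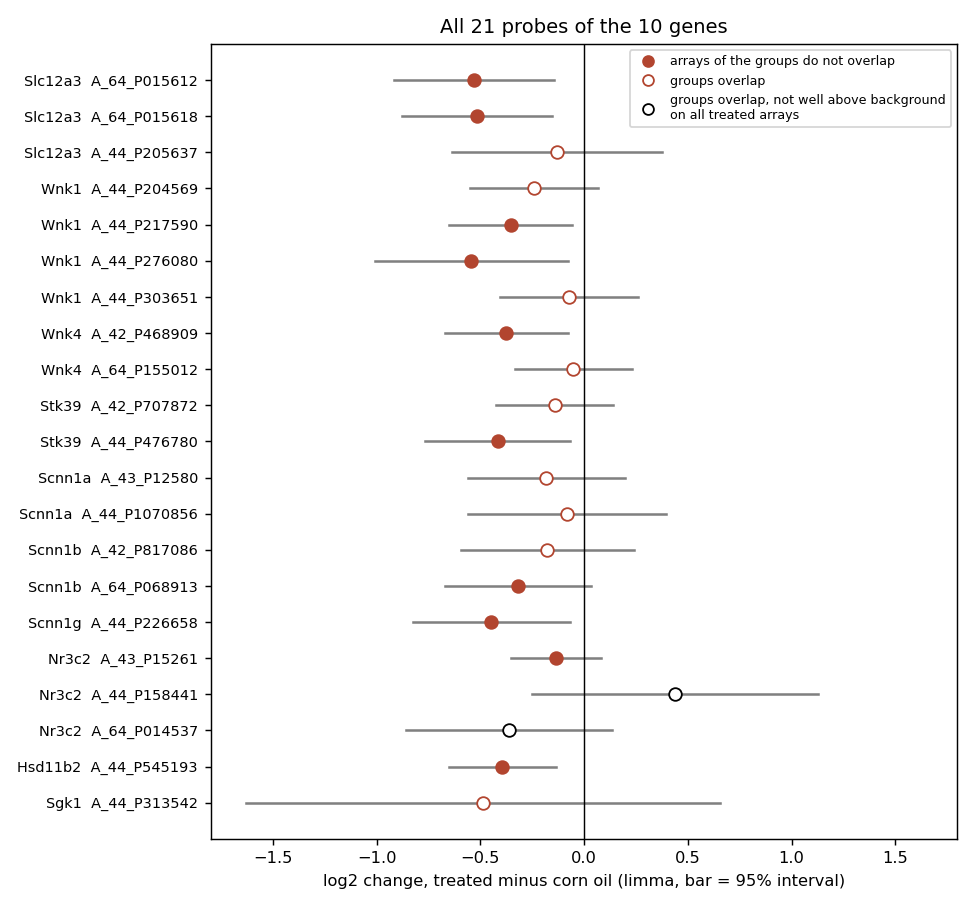
Log2 change (treated minus corn oil, limma) of all 21 probes with 95% intervals; filled points mark probes whose treated and corn oil arrays do not overlap, and black outlines mark the 2 probes that were not well above background on all treated arrays. All points but 1 (Nr3c2, A_44_P158441, 0.44) lie below 0, and every probe had an adjusted p of 0.177 or more.

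Among the subunits of the epithelial sodium channel, the gamma subunit differed more than the alpha and beta subunits, in values that were not tested against each other. Scnn1g, the gamma subunit, read 2.53, 2.13 and 1.97 on the treated arrays, against 2.66, 2.62 and 2.70 on the corn oil arrays. The corn oil animals were nearly identical (SD 0.04), the treated animals were not (SD 0.29), and the groups did not overlap. The change was -0.45 ± 0.16 (limma, 0.733-fold, adjusted p = 0.205).

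Scnn1b, the beta subunit, read 4.12, 4.06 and 3.57 with probe A_42_P817086 on the treated arrays, against 3.93, 4.19 and 4.17 on the corn oil arrays. The groups overlapped and the change was -0.18 ± 0.17 (limma, adjusted p = 0.564), with treated replicate 3 alone clearly below the corn oil range. Without treated replicate 3 the change was -0.0029, and without treated replicate 1 it was -0.28. Its other probe, A_64_P068913, read 1.20, 1.12 and 0.76 on the treated arrays, against 1.20, 1.42 and 1.42 on the corn oil arrays, a change of -0.32 ± 0.15 (limma, adjusted p = 0.267), or -0.19 without treated replicate 3. The nearest treated and corn oil arrays were equal to 2 decimals on this probe.

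Scnn1a, the alpha subunit that aldosterone raises in the collecting duct, showed overlap with both probes. Probe A_43_P12580 read 0.22, -0.27 and 0.18 on the treated arrays, against 0.36, 0.18 and 0.14 on the corn oil arrays. Treated replicate 2 alone lay below the corn oil range, and the change was -0.18 ± 0.16 (limma, adjusted p = 0.515). Without treated replicate 2 it was -0.025, and without corn oil replicate 1 it was -0.12. Probe A_44_P1070856 had a change of -0.08 with a 95% interval from -0.56 to 0.40, and its sign turned under 5 of the alternatives tried.

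Hsd11b2 encodes 11-beta-hydroxysteroid dehydrogenase type 2, which converts active glucocorticoids to inactive ones in aldosterone target cells. Its processed intensity was 31170, 26486 and 24870 on the treated arrays, against 46693, 45823 and 45233 on the corn oil arrays. On the scaled log2 measure these were 5.51, 5.55 and 5.31 on the treated arrays, against 5.78, 5.95 and 5.83 on the corn oil arrays. All treated animals lay below all corn oil animals. The change of -0.39 ± 0.11 (limma, 0.761-fold, 95% interval -0.65 to -0.14, adjusted p = 0.177) had the lowest p of the 21 probes and ranked 2161 by p among all tested probes.

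Nr3c2, the mineralocorticoid receptor, showed a small difference with its clearly detected probe. Probe A_43_P15261 read 0.34, 0.26 and 0.16 on the treated arrays, against 0.39, 0.37 and 0.41 on the corn oil arrays. The groups did not overlap, but the change was only -0.14 ± 0.09 (limma, adjusted p = 0.402), and its range over the alternatives tried was -0.46 to -0.021. Without treated replicate 3 it was -0.089. The other 2 probes were near background. Probe A_44_P158441 was well above background on all corn oil arrays and on 1 treated array, and its processed intensity was 32.6, 12.9 and 14.9 on the treated arrays, against 17.5, 17.1 and 17.6 on the corn oil arrays. Its positive change of 0.44 ± 0.29 (limma, adjusted p = 0.397) was 0.096 without treated replicate 1. Probe A_64_P014537 was not well above background on any treated array, and it was tested only because it was so on all corn oil arrays. It read -5.73, -5.54 and -5.63 on the treated arrays, against -5.73, -5.03 and -5.04 on the corn oil arrays. The groups overlapped, with corn oil replicate 1 the lowest of the 6 arrays. Its corn oil mean of -5.27 was 1.12-fold above the treated bound (treated mean -5.63, limma adjusted p = 0.343). Given the overlap, that bound is not a least fall. Without corn oil replicate 1 its log2 change of -0.36 was -0.60. The bound sets each treated array at the higher of the probe's own signal and the dimmest signal called well above background.

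Sgk1, the kinase that aldosterone and glucocorticoids induce and that restrains degradation of the sodium channel, varied more between animals than between groups. Its probe read 1.59, 3.24 and 2.50 on the treated arrays, against 2.24, 3.26 and 3.29 on the corn oil arrays. The lowest and the highest animals of the treated group differed by 1.65 on the log2 scale, and those of the corn oil group by 1.05. The groups overlapped, and the change of -0.49 ± 0.47 (limma, adjusted p = 0.563) had a 95% interval from -1.63 to 0.66. Without treated replicate 1 the change was -0.061 and without treated replicate 2 it was -0.89. Without corn oil replicates 1, 2 and 3 in turn it was -0.83, -0.32 and -0.31.

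The size of the difference varied between the treated animals. After subtraction of the corn oil mean of each probe, the 21 probes had a median of -0.13, -0.30 and -0.36 on the treated arrays, against -0.08, 0.08 and -0.04 on the corn oil arrays. Over all tested probes the same medians lay between -0.0014 and 0.014. Treated replicate 1 was the nearest to the corn oil animals, and it was the highest treated array for 8 of the 10 genes. Across the 6 arrays, the 45 pairs of genes had a median Pearson r of 0.67. The highest r was 0.98, between Scnn1g and Nr3c2, and the lowest was -0.53, between Scnn1a and Sgk1. These values share the group difference and the array scaling and are given as a description.

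The low values of the brighter members stood against the trend of the array. Over all tested probes, the median log2 change was -0.22 in the 10% of probes with the lowest mean signal and 0.24 in the 10% with the highest. Hsd11b2, the first Slc12a3 probe, and the brightest Wnk1 and Scnn1b probes lay in that highest bin, with changes of -0.39, -0.53, -0.24 and -0.18. Of the 21 probes, 18 lay below the median of their own bin. The exceptions were Nr3c2 A_44_P158441, and Wnk4 A_64_P155012 and Scnn1a A_44_P1070856, whose changes were 0.016 and 0.0017 above it.

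**Figure D3:**
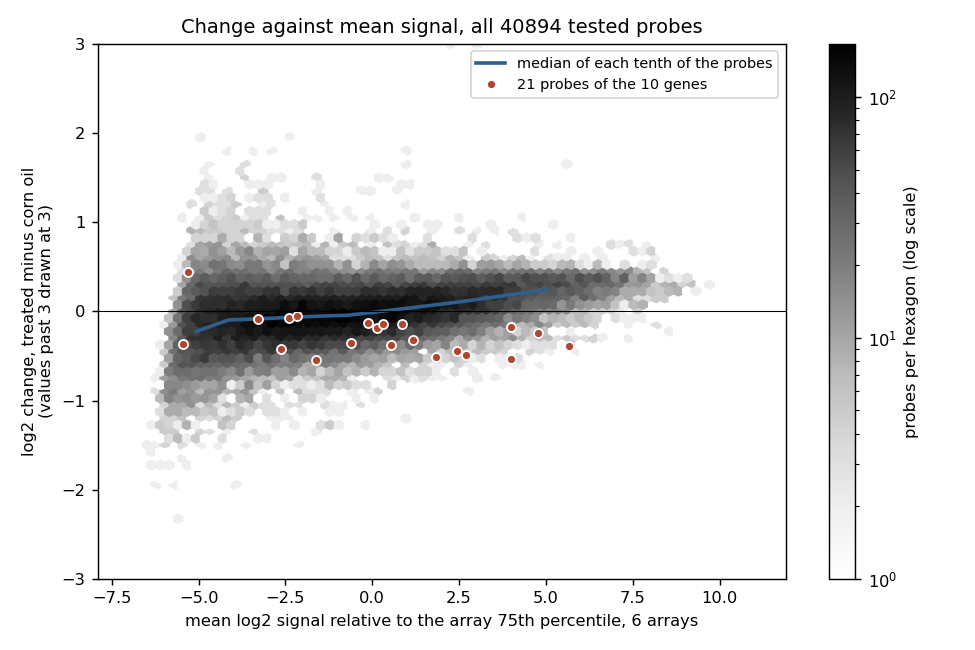
Log2 change (treated minus corn oil) against mean log2 signal over the 6 arrays for the 40894 tested probes, drawn as hexagons shaded by probe number; the line joins the medians of 10 equal bins by mean signal, and the red points are the 21 probes of the distal sodium genes. The line runs from -0.22 to 0.24, and 18 of the 21 points lie below the median of their bin.

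Other genes of distal ion transport and its regulation had changes on both sides of 0. Of 20 listed genes, 15 had a tested probe, 10 with a change above 0 and 5 below, with a median of 0.06, and 0 were called (limma; 2 at an unadjusted p under 0.05, both higher). Usp2, a deubiquitinase that can act on the sodium channel, had a change of 0.58 ± 0.15 (limma, adjusted p = 0.175), and its arrays did not overlap. Fxyd2, the gamma subunit of the sodium pump, had 0.35 ± 0.12 (adjusted p = 0.196). The pump's beta subunit Atp1b1 had 0.19 ± 0.09 and Ppp1r1a, an inhibitor of protein phosphatase 1, had 0.24 ± 0.13. Nedd4l and Klhl3, the ubiquitin ligase components that act on the channel and on WNK kinases, were not analysed here.

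Genes that respond to corticosteroids, of which Sgk1 and Nr3c2 are also members, showed no common direction. Of 12 genes tested, 7 lay below 0 and 5 above, with a median of -0.10, and 0 were called (limma; 1 lower at an unadjusted p under 0.05). Per1, a clock gene that aldosterone induces in the collecting duct, was that gene, with a change of -0.62 ± 0.21 (adjusted p = 0.199). Hsd11b1, which regenerates active glucocorticoid, had 0.19 ± 0.12, and Fkbp5, a glucocorticoid-induced chaperone of the receptor, had -0.20 ± 0.14. Neither passed.

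Most markers of the tubule segments that express the 10 genes also had changes below 0, without a call. In the distal convoluted and connecting tubule list, 5 of 8 markers were tested and 4 lay below 0, with a median of -0.25. Their summed signal, as multiples of the 75th percentile, was 198 to 242 on the treated arrays and 205 to 221 on the corn oil arrays, and was mostly that of Klk1 (tissue kallikrein, 0.08) and Egf (-0.19). Parvalbumin, Pvalb, was well above background on 1 array only. The sodium-calcium exchanger gene Slc8a1 had -1.19 ± 0.36 (limma, adjusted p = 0.186) by its brightest probe, without overlap. That probe read -1.43, -2.51 and -2.86 on the treated arrays, against -1.21, -0.95 and -1.06 on the corn oil arrays. It had the lowest change of the 4 tested Slc8a1 probes, which ranged from -1.19 to -0.44. Of 8 principal cell markers, 7 were tested and 6 lay below 0, with a median of -0.16 and a summed signal of 110 to 152 on the treated arrays and 126 to 135 on the corn oil arrays. Aquaporin 2, Aqp2, had 0.18 ± 0.17 and aquaporin 3, Aqp3, had -0.31 ± 0.11, while Gata3, a transcription factor of the collecting duct, had -0.43 ± 0.15. The part of tubule segment markers in the lower values of the 10 genes was not tested.

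By the brightest probe of each gene, other segments and cell types had list medians near or above 0, though most podocyte markers also lay below 0. Markers of the thick ascending limb went both ways: 3 of 5 lay above 0 and 2 below, with a median of 0.35. Umod (uromodulin) had 0.45 ± 0.12 and Cldn10 (a claudin) 0.43 ± 0.28, while Ptger3 (a prostaglandin receptor) had -0.26 ± 0.10 without overlap and Kcnj1 (a potassium channel) -0.16 ± 0.11. Kcnj1 is also in the principal cell and distal ion transport lists, and its value is the principal cell median. Intercalated cell markers had a median of 0.06 over 8 genes, with Atp6v1g3 at 0.28 and Slc26a4 (pendrin) at -0.20. Proximal tubule markers were split, 4 above 0 and 4 below, with a median of -0.0044. At an unadjusted p under 0.05, 3 were lower and 1 was higher. Miox had 0.27 and Slc13a3 0.25, while the endocytic receptor genes Cubn and Lrp2 had -0.52 and -0.34 and the transporter gene Slc5a12 had -0.50. Podocyte markers had a median of -0.08, with 5 of 6 genes below 0 (Podxl -0.11). Endothelial markers had a median of -0.0013 over 6 genes (Kdr -0.06, Pecam1 0.06, and Tek -0.44 without overlap). Other probes of these genes could differ in sign: the second Pecam1 probe had -0.47, and the Cdh5 probes had 0.28 and -0.17.

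Leukocyte markers diverged: 3 of 5 lay above 0 and 2 below, with a median of 0.03. Lyz2 had 0.29, Cd68 0.03 and the B cell gene Cd79b 0.81 without overlap, while the T cell gene Cd3e had -0.97 and Ptprc -0.23. The Cd3e probe was well above background on only 4 of the 6 arrays, so it was tested through 1 group alone, and its groups overlapped. The 5 tested Ptprc probes ranged from -0.73 to -0.23. Fibroblast markers had a median of 0.05 over 5 genes (Col1a2 0.05, Dcn 0.26), and tubular injury markers 0.35 over 5 (Clu -0.61, Spp1 0.11, and the keratin gene Krt19 at 1.504 without overlap). Of 6 adrenal cortex markers, 2 were tested (Hsd3b1 1.23 ± 0.47, Cyp21a1 0.01), while Star, Cyp11b1 and the aldosterone synthase Cyp11b2 were not well above background on any array. Across all 11 marker lists, 0 genes were called (limma).

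**Figure D4:**
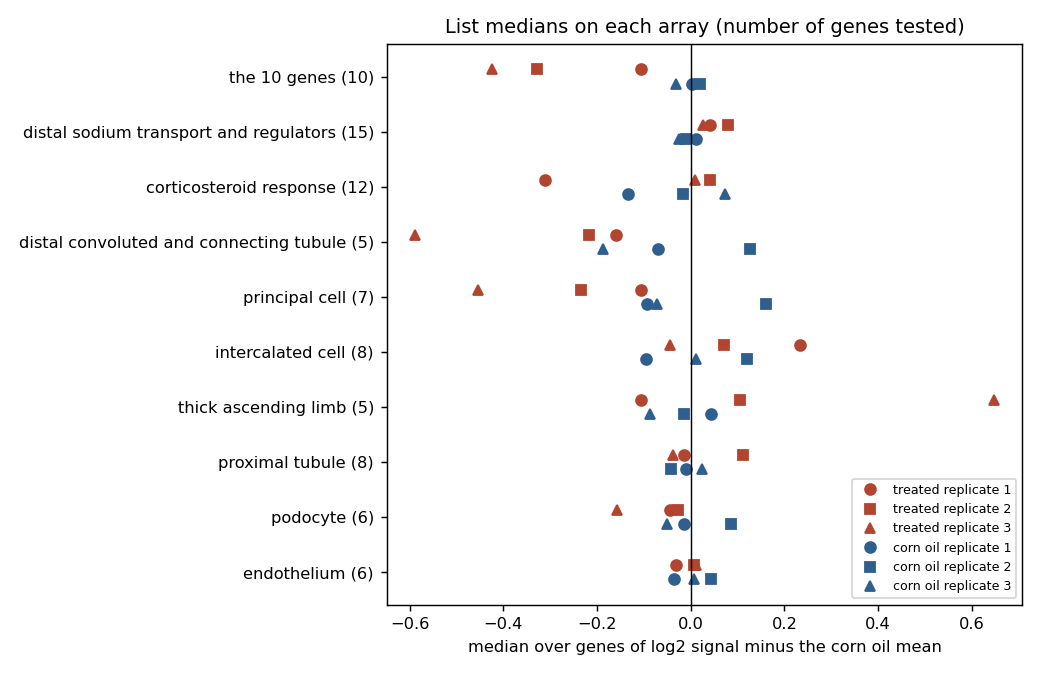
Median over the genes of each list of log2 signal minus that gene's corn oil mean, for the 3 treated and 3 corn oil arrays; the number of genes tested is in parentheses and marker shape gives the replicate. The 10 genes lie at -0.11, -0.33 and -0.42 on the treated arrays, against 0.0018, 0.02 and -0.03 on the corn oil arrays, and the treated values of the other distal transport genes lie between 0.03 and 0.08.

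The genes whose pattern over the 6 arrays was most like that of Slc12a3 were Casc3, Hps4 and Pwwp3a, with Pearson r of 0.99, 0.99 and 0.98 among 11738 genes ranked. For Slc12a3, 237 genes had an r above 0.9. The genes most like Sgk1 were Cib2, Rin2 and Slc27a4, with r of 0.98, 0.98 and 0.97. For Sgk1, 87 genes had an r above 0.9. These values over 6 arrays are a description.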

How the data were processed

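Spot intensity came from Agilent Feature Extraction (10.7.1.1 per the file headers, 10.7 per the submitters' processing notes). The deposited intensity had its background subtracted by that software and is linear, per the file headers. The authors' deposited value table is a ratio of intensity to the array's 75th percentile, as its match to the scanner files showed.

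Here log2 intensity minus the 75th percentile was used, with no pseudocount. Of 61657 probes, 64 flagged as outliers were dropped, and 40894 that were well above background on every array of a group were tested. All 21 member probes passed, 19 of them on all 6 arrays. Probes were tested singly in R 4.3.3 with limma 3.58.1 (lmFit, eBayes, no block), with Benjamini-Hochberg adjustment over all tested probes; the fit was tested on simulated data. RefSeq GRCr8 tables named 27460 probes in 15284 genes and gave the promoters. A list gene is represented by its tested probe of highest mean signal.

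The members and lists were chosen with earlier results of these data known, and the motifs and promoters after the values were seen. Named are all members, up to 4 genes of lowest p per pathway list, the 2 markers of highest signal per cell type (1 marker gene is not reported here) and the 3 genes most like Slc12a3 and Sgk1; others (Pvalb, Slc8a1, Gata3, Ptger3, Kcnj1, Cubn, Lrp2, Slc5a12, Tek, Cd79b, Cd3e, Ptprc, Krt19, Star, Cyp11b1, Cyp11b2) were picked after their values were seen. The 20 alternatives covered background correction, scaling, filters, blocks, probes per gene, model settings, array weights, the threshold and each array left out. Replicate numbers did not pair the arrays (correlations of deviations -0.00079, -0.036 and -0.019). The number of arrays limits the precision.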

Additional observations from a re-analysis of the deposited data

How the results depend on the processing

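No member probe was called under 19 of the 20 alternatives, and 10 were, all lower, with array weights, which called 12276 of the 40894 probes (6438 higher, 5838 lower); the cause was not tested. Over the whole array, 4 probes were called after normexp correction, 2 with trend and robust settings, 3 with 1 probe per gene (11748 tested) and 0 to 91 when 1 array was left out: 91 without treated replicate 2, 17 without treated replicate 1, 1 without treated replicate 3 and 0 without any 1 corn oil array. The member median was -0.64 after spike-in scaling, which moved the median of all probes to -0.32, and -0.21 after normexp, where 16 of 21 lay below 0 and all probes had a median of 0.085. With the replicate block 0 member probes were called and 5 of 21 were at an unadjusted p under 0.05, against 7000 of all 40894 probes. That block changed no other call. Blocking on the slide gives the log2 changes seen without corn oil replicate 2, with a median of -0.24. Member probes at an unadjusted p under 0.05 numbered 3 to 11 over the alternatives, and the count over all 40894 probes moved too. The 3 came with the slide block, beside 5442 of all probes. The 11 came with array weights, beside 18425 of all probes, and with spike-in scaling, beside 9545. Signs turned only for dim or overlapping probes. After normexp these were Wnk1 A_44_P303651 (0.042), Wnk4 A_64_P155012 (0.066), Scnn1a A_44_P1070856 (0.074) and Nr3c2 A_64_P014537 (0.21). Under the slide block, or without corn oil replicate 2, they were Slc12a3 A_44_P205637 (0.029) and Scnn1a A_44_P1070856 (0.046). Scnn1a A_44_P1070856 also turned with array weights (0.086) and without treated replicate 2 (0.080). Without treated replicate 3, Slc12a3 A_44_P205637 (0.0084) and Wnk4 A_64_P155012 (0.0027) turned, as did Wnk1 A_44_P303651 without corn oil replicate 1 (0.025) and Wnk4 A_64_P155012 without corn oil replicate 3 (0.0084). When 1 array was left out, the ranges of these probes were -0.30 to 0.029 for Slc12a3 A_44_P205637, -0.16 to 0.025 for Wnk1 A_44_P303651, -0.14 to 0.0084 for Wnk4 A_64_P155012 and -0.22 to 0.080 for Scnn1a A_44_P1070856. The causes were not tested.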

Other observations

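Several corticosteroid-responsive genes had their lowest value of the 6 arrays on treated replicate 1, the animal with the lowest Sgk1. Besides Sgk1 itself, this held for 5 of the other 11 listed genes (45.5%), against 14.8% of all tested probes; the pattern was picked after the values were seen and was not tested. Fibroblast markers had their lowest value on the same array for 5 of 5 tested genes, with a list median of -0.42, 0.51 and 0.13 on the treated arrays, against 0.05, -0.13 and 0.09 on the corn oil arrays, so the low values there are not particular to corticosteroid genes. Tsc22d3, the glucocorticoid-induced leucine zipper, read 1.73, 2.53 and 2.35 on the treated arrays, against 2.26, 2.18 and 2.14 on the corn oil arrays. Errfi1, a feedback inhibitor of the EGF receptor, read 5.10, 5.84 and 6.15 on the treated arrays, against 5.34, 5.34 and 5.85 on the corn oil arrays. Dusp1, a phosphatase of MAP kinases, read -3.10, -2.13 and -2.32 on the treated arrays, against -2.97, -2.70 and -2.33 on the corn oil arrays. Treated replicate 1 had the lowest values of these genes while being the highest treated array for 8 of the 10 distal sodium genes.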
